A study of Mus musculus with 8 samples.

Results

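The 10 genes described here encode subunits of the Polycomb repressive complexes PRC2 and PRC1, and were taken by their symbols from a table of 19201 genes measured in mouse hippocampus. All 10 were found: the PRC2 core genes Ezh1, Ezh2, Eed and Suz12, the PRC2 accessory genes Jarid2, Mtf2 and Phf1, and the PRC1 genes Rnf2, Bmi1 and Cbx7. The study asked which hippocampal transcripts depend on MBD2, a protein that binds methylated DNA, by sequencing total RNA depleted of ribosomal RNA from 4 wild-type and 4 Mbd2-/- libraries. Every mouse was 10 to 12 weeks old and untreated, and each library pooled the hippocampi of 2 mice, so that the spread between libraries is a spread between pools. The wild-type group, labelled control, was C57BL/6, and the Mbd2-/- group carried a germline deletion on that background. The deletion is constitutive, in every cell throughout life, and its first exon is still transcribed, which limits what Mbd2 reads can show.

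Polycomb proteins keep genes silent through chromatin. PRC2 places methyl groups on lysine residues of histone H3 (the H3K27me3 mark), with EZH1 or EZH2 as the enzyme, SUZ12 as the scaffold and EED as the subunit that binds the finished mark and stimulates the enzyme. Accessory proteins bring the core to its sites in alternative assemblies, one built around MTF2 or PHF1 and another around JARID2, while PRC1 ubiquitinates histone H2A and can bind H3K27me3 through CBX proteins. In the brain these complexes are known for holding developmental regulators silent in neurons, and EZH2 is typical of dividing progenitors whereas EZH1 persists in mature cells. MBD2 belongs to a different repressor, the NuRD complex, which it joins to methylated CpG sites.

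Because MBD2 reads methylated CpG sites, the CpG content of the members' promoters is shown for the gene on which the results turn, Jarid2. The RefSeq windows of 300 bases, running from 250 bases before to 50 bases after a transcript start, gave 2 starts for Jarid2, both on the plus strand and placed by their only match in the mm9 genome (NCBIM37). They lie at chr13:44825893-44826192 and chr13:44826390-44826689, and capitals mark each CG.
Jarid2 start 1: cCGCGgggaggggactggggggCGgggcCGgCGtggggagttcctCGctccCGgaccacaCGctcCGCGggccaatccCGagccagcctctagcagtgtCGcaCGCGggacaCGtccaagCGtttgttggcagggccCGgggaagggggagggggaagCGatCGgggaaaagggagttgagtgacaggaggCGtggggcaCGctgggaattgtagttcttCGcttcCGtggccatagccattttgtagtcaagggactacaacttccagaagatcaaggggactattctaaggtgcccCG
Jarid2 start 2: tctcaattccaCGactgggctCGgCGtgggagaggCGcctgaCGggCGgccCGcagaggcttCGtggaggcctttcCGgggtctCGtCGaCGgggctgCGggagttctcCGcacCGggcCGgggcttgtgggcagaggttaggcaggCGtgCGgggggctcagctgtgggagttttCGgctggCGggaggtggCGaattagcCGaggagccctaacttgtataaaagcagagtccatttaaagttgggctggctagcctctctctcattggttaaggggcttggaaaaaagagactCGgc

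The first of these windows held 24 CG and the second 23, more than 80% and 78.5% of all windows. The richest window of each of the 10 genes held from 17 CG in Eed to 41 in Suz12. Over all 32851 windows, taken singly and not as the richest per gene, the median was 7 (quartiles 3 and 20). Of these, 94.6% held at least 1 CG (CG reads the same on both strands). Of the 12 windows of the members the poorest was a second start of Mtf2 with 2 CG, beside 30 at its first start. No methylation or binding was measured in these libraries, so the windows describe sequence only.

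The reads assigned to genes numbered 8439570 to 23790825 in the wild-type libraries and 8087750 to 14020765 in the Mbd2-/- libraries, and members had between 99 (Eed) and 1872 (Ezh1) reads in a library. Mbd2 itself measured 295 to 371 normalized counts (reads divided by the library's size factor) in wild-type and 217 to 339 in Mbd2-/- libraries, and the groups overlapped through Mbd2-/- replicate 3 (log2 fold change -0.43, SE 0.12, adjusted p = 0.0174 by limma, n = 4 and 4). Mbd2-/- replicate 4 stood apart from the other Mbd2-/- libraries. Across 14177 genes transcript length was rank-correlated with the difference from the wild-type mean. The correlation was -0.48, -0.43 and -0.48 in Mbd2-/- replicates 1 to 3, but -0.10 in replicate 4. It was between -0.07 and 0.06 in wild-type libraries, which make up that mean, so that their values centre near 0 by construction. Marker lists of neighbouring tissue also differed. All 19 choroid plexus markers rose (summed 24783 to 26510 normalized counts in wild-type, 47855 to 54180 in Mbd2-/-), and 12 of 13 thalamus markers fell (7430 to 7615, and 5067 to 5813). Among glial lists, 8 of 11 oligodendrocyte, 7 of 10 astrocyte and 7 of 11 microglia markers rose, together with 3 of 11 endothelial and pericyte markers, and 2 of 6 oligodendrocyte precursor markers fell, where 12.0% of all tested genes rose and 10.0% fell. Hippocampal excitatory neuron markers were present throughout, 5 of 12 lower and 1 higher, as were interneuron markers, 3 of 10 lower and 5 higher. No marker on these lists was at 0 in all libraries. The part of tissue makeup, of transcript length and of Mbd2-/- replicate 4 in the results below was not tested except where values without them are given, and in bulk RNA fewer cells of a type and less RNA per cell cannot be told apart.

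Of the 10 subunits, 1 passed the test with all libraries, Jarid2, which was lower in Mbd2-/- hippocampus. The call depended on the setting, since 0 members were called by limma with the trend on transcript length taken out, and Mtf2 and Suz12 were called lower as well without Mbd2-/- replicate 4. The background is broad: limma on log2(normalized count + 1) called 3185 of the 14504 genes tested at an adjusted p under 0.05, which is 22.0%, with 10.0% lower and 12.0% higher. Read against that share, 1 of 10 called is not more than the table as a whole gave. The members' log2 fold changes ran from -0.29 to 0.21, 7 of the 10 were below 0, and their median was -0.05, beside quartiles of -0.14 and 0.16 over all tested genes. All 10 members passed the filter on low values, a mean of at least 10 normalized counts.

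**Figure D1:**
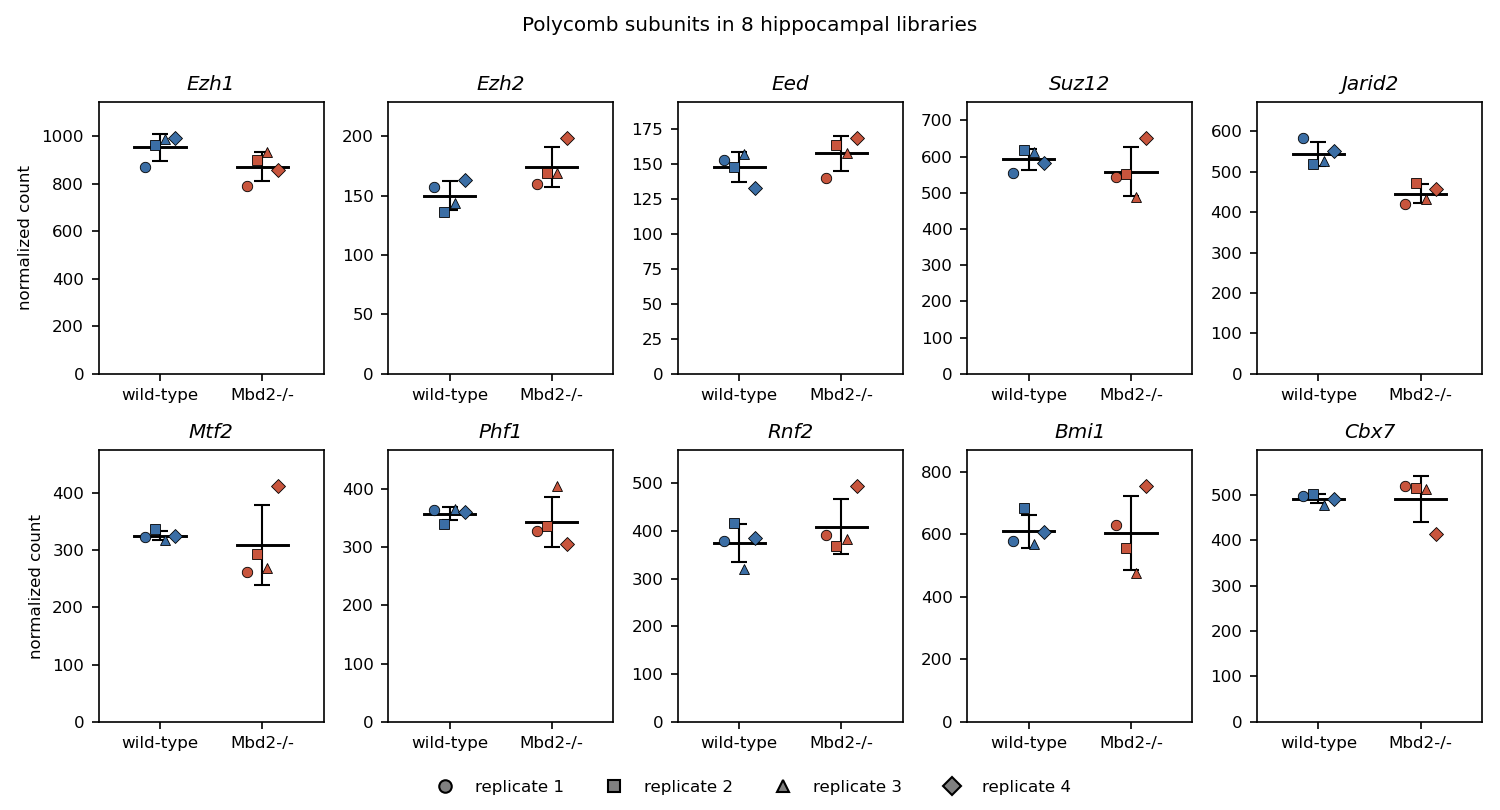
Normalized counts (vertical axis, from 0, on a scale of its own for each gene) of the 10 Polycomb subunits in 4 wild-type (blue) and 4 Mbd2-/- (red) libraries, with symbols for the replicates and bars for the mean and SD of each group. Jarid2 is the gene whose groups do not overlap, and the diamond of Mbd2-/- replicate 4 is the highest library for Ezh2, Eed, Suz12, Mtf2, Rnf2 and Bmi1.

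Jarid2, the accessory subunit that binds PRC2 and helps to place it on chromatin, is a gene on the plus strand at chr13:44824843-45017012 (mm9), with a longest annotated transcript of 8353 bases. It measured 585, 518, 527 and 550 normalized counts in wild-type replicates 1 to 4 and 421, 472, 434 and 457 in Mbd2-/- replicates 1 to 4. The highest Mbd2-/- library lay below the lowest wild-type library, a separation in this direction that 11.5% of all tested genes showed. The means were 545 ± 29.6 and 446 ± 22.8 (SD, n = 4 each), a log2 fold change of -0.29 (SE 0.07, 95% interval -0.43 to -0.15) with an adjusted p = 0.00599 by limma. The difference was as large without Mbd2-/- replicate 4, at a log2 fold change of -0.30 (adjusted p = 8.17e-04 by limma). Transcript length moved with the call. Jarid2 is long, with 3.92% of the genes that have an annotated length longer than it, and with the trend on transcript length taken out its log2 fold change was -0.16 and it no longer passed the test (adjusted p = 0.106 by limma). In that setting 0 of the 10 members were called by limma, against 14.7% of the genes tested, and 1 of the 10, Jarid2, had an unadjusted p under 0.05.

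The other accessory subunits are Polycomb-like proteins, which bind DNA rich in unmethylated CpG and carry a Tudor domain that reads histone H3. Mtf2 (plus strand, chr5:108494693-108538023) was tightly grouped in wild-type libraries, at 322, 336, 318 and 324 normalized counts. Its Mbd2-/- values were 262, 293, 269 and 412. Replicates 1 to 3 were below every wild-type library and replicate 4 was the highest of all 8, so the coefficient of variation was 2.40% in wild-type and 22.7% in Mbd2-/- libraries. With all libraries the log2 fold change of Mtf2 was -0.10 (SE 0.11, 95% interval -0.34 to 0.14, adjusted p = 0.571 by limma), and without Mbd2-/- replicate 4 it was -0.24 (adjusted p = 0.0110 by limma). An exon of Tmed5 overlaps Mtf2 on the opposite strand, and whether counting used strand is not given in the sources used here. Phf1 (plus strand, chr17:27070072-27074835), the shortest of the accessory genes, measured 363, 340, 366 and 361 in wild-type and 327, 337, 405 and 306 in Mbd2-/- libraries. Its groups overlapped (log2 fold change -0.06, SE 0.08, 95% interval -0.24 to 0.11, adjusted p = 0.618 by limma), and the value moved with single libraries, to -0.01 without Mbd2-/- replicate 4 and -0.15 without replicate 3.

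Of the 4 core PRC2 genes 0 were called by limma, DESeq2 or edgeR. At an unadjusted p under 0.05 there was 1 by limma (Ezh2), 0 by DESeq2 and 2 by edgeR (Ezh1 and Ezh2). By limma at least 22.0% of all tested genes were under that unadjusted threshold, since 22.0% passed after adjustment. Ezh1 (minus strand, chr11:101052429-101087777) measured 871, 964, 987 and 994 normalized counts in wild-type and 792, 900, 934 and 858 in Mbd2-/- libraries, with a log2 fold change of -0.13 (SE 0.07, 95% interval -0.27 to 0.01, adjusted p = 0.157 by limma). Ezh2 (minus strand, chr6:47480273-47545340) went the other way, from 157, 136, 144 and 163 in wild-type to 160, 169, 169 and 199 in Mbd2-/- libraries. Its interval left out 0 before adjustment over all genes, which the test did not survive (log2 fold change 0.21, SE 0.10, 95% interval 0.01 to 0.42, unadjusted p = 0.0437 and adjusted p = 0.128 by limma). Markers of dividing progenitors, the cells for which Ezh2 is best known, and of immature neurons gave 0 calls of 10 by limma and by DESeq2. There was 1 call by edgeR. At an unadjusted p under 0.05 there were 3 by limma, 2 by DESeq2 and 2 by edgeR. The 3 by limma stand beside the same share of at least 22.0% of all tested genes. By limma these 3 were Top2a, Nes and Igfbpl1, all with a log2 fold change above 0 (0.52, 0.24 and 0.27). The other 7 of the 10 tested were below 0, and the median over the 10 was -0.07. Over all 12 listed markers the summed level was 1232 to 1303 normalized counts in wild-type libraries. In Mbd2-/- libraries it was 1199 to 1214 in replicates 1 to 3 and 1525 in replicate 4. Sox11 gave 713 of that 1525, and replicate 4 was also the library with the most Ezh2.

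Eed (minus strand, chr7:97103166-97129493), which had the fewest reads of the members, measured 153, 148, 158 and 133 in wild-type and 140, 164, 158 and 169 in Mbd2-/- libraries. Its log2 fold change was 0.09 (SE 0.09, 95% interval -0.11 to 0.29, adjusted p = 0.519 by limma). The scaffold gene Suz12 (plus strand, chr11:79806608-79847625) measured 556, 618, 613 and 582 in wild-type and 543, 551, 488 and 652 in Mbd2-/- libraries. As for Mtf2, Mbd2-/- replicates 1 to 3 were below every wild-type library and replicate 4 was above them all. The log2 fold change of Suz12 was -0.09 with all libraries (SE 0.08, 95% interval -0.26 to 0.08, adjusted p = 0.441 by limma) and -0.17 without Mbd2-/- replicate 4 (adjusted p = 0.0417 by limma).

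The PRC1 genes overlapped between genotypes, with 0 of 3 called, and 0 at an unadjusted p under 0.05, by limma, DESeq2 or edgeR. Rnf2 (minus strand, chr1:153316536-153347953), the ubiquitin ligase of the complex, measured 379, 416, 321 and 385 in wild-type and 391, 369, 383 and 495 in Mbd2-/- libraries (log2 fold change 0.12, SE 0.10, 95% interval -0.08 to 0.32, adjusted p = 0.393 by limma). Its log2 fold change was 0.03 without Mbd2-/- replicate 4 and 0.05 without wild-type replicate 3. Bmi1 (plus strand, chr2:18598645-18608256), the PCGF partner of that ligase, measured 579, 685, 569 and 607 in wild-type and 628, 555, 475 and 755 in Mbd2-/- libraries. Its log2 fold change was -0.03 (SE 0.11, 95% interval -0.27 to 0.21, adjusted p = 0.867 by limma), and its sign turned with single libraries left out. Cbx7 (minus strand, chr15:79746237-79801549), the chromodomain subunit that binds H3K27me3, was even across the wild-type libraries at 496, 501, 477 and 491. In Mbd2-/- libraries it measured 520, 515 and 512 in replicates 1 to 3, above every wild-type value, and 414 in replicate 4, below them all. The log2 fold change of Cbx7 was -0.01 (SE 0.08, 95% interval -0.17 to 0.15, adjusted p = 0.944 by limma) and changed sign, to 0.07, without that library (adjusted p = 0.399 by limma).

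**Figure D2:**
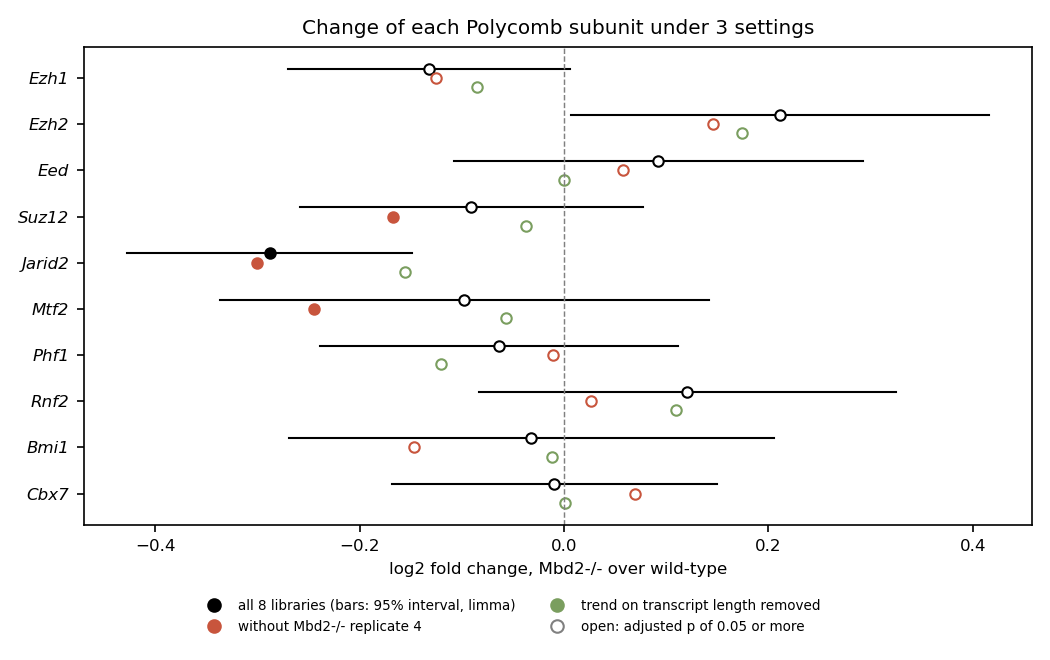
Log2 fold change (Mbd2-/- over wild-type, horizontal axis) of the 10 subunits with all 8 libraries (black, bars for the 95% interval by limma), without Mbd2-/- replicate 4 (red) and with the trend on transcript length removed (green), where filled points have an adjusted p under 0.05. Jarid2 is filled in the first 2 settings, at -0.29 and -0.30, and open at -0.16 in the third, whereas Suz12 and Mtf2 are filled only without Mbd2-/- replicate 4.

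The pattern of Mbd2-/- replicate 4 ran through most of the members. It was the highest of the 8 libraries for 6 of them and the lowest for Phf1 and Cbx7, while 17.7% of all tested genes were highest and 17.3% lowest there. Set against the mean of Mbd2-/- replicates 1 to 3, its log2 difference was 0.59 for Mtf2, 0.45 for Bmi1, 0.38 for Rnf2, 0.31 for Suz12 and 0.26 for Ezh2, and in the other direction -0.32 for Cbx7 and -0.22 for Phf1. For Jarid2 it was 0.05, beside quartiles of -0.18 and 0.16 over all tested genes. Leaving this library out gave 3 members called, Jarid2, Mtf2 and Suz12, all lower, in a fit that called 35.6% of 14490 genes, 17.7% lower.

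Because some subunits replace or guide others, balances between them were formed within each library, where library scaling cancels. Jarid2 relative to the PRC2 core (log2 of Jarid2 minus the mean log2 of Ezh1, Ezh2, Eed and Suz12, with 1 added to each count) was 0.83, 0.64, 0.62 and 0.71 in wild-type and 0.43, 0.46, 0.38 and 0.30 in Mbd2-/- libraries. The groups did not overlap. The difference was -0.31 (0.70 ± 0.09 and 0.39 ± 0.07, SD, n = 4 each), with p = 0.0286 by a two-sided exact permutation test, the smallest that 4 against 4 libraries can give, and an adjusted p = 0.0429 over the 3 balances tested. It was -0.27 to -0.34 with any 1 library left out, and -0.17 with the length trend removed (p = 0.114, exact permutation test).

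The balance of the alternative enzymes, Ezh2 relative to Ezh1 on the same log2 scale, was -2.46, -2.81, -2.77 and -2.60 in wild-type and -2.30, -2.40, -2.46 and -2.10 in Mbd2-/- libraries. Wild-type replicate 1 and Mbd2-/- replicate 3 were nearly level. The difference was 0.34 (-2.66 ± 0.16 and -2.32 ± 0.16, SD, n = 4 each; p = 0.0286 by the exact permutation test, adjusted p = 0.0429), and it lost that p with 5 in place of 1 added to each count (p = 0.0571, exact permutation test) and with the length trend removed (0.26, p = 0.114, exact permutation test). With 1 library left out it was 0.27 to 0.41. With 4 against 3 libraries the p of the exact permutation test moves in coarse steps. By that test it was 0.0286 in 8 of 8 such fits for the Jarid2 balance. For the Ezh2 balance it was 0.0286 in 2 of 8 fits and 0.0571 in the other 6.

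**Figure D3:**
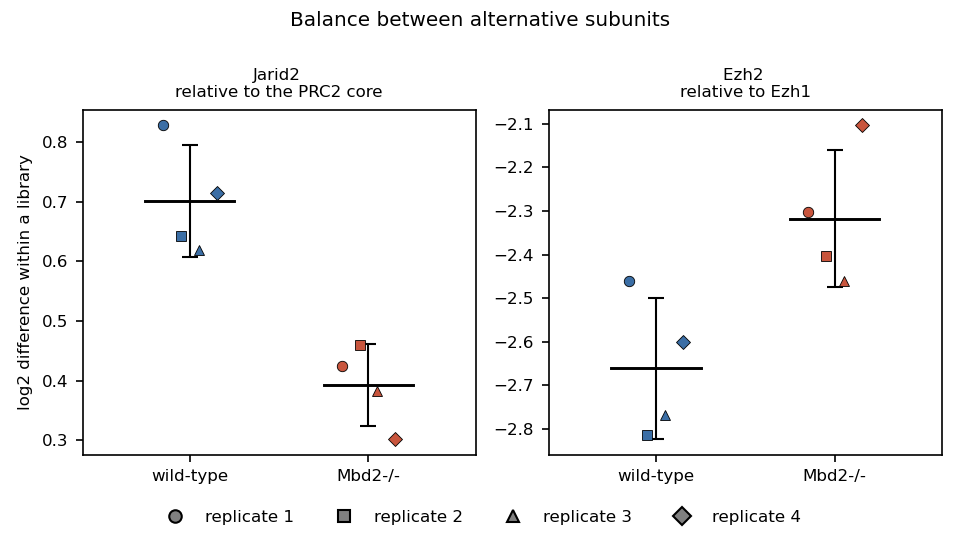
Balance between subunits as a log2 difference within a library (vertical axes, each on its own scale and not from 0) in wild-type (blue) and Mbd2-/- (red) libraries, with symbols for the replicates and bars for the mean and SD. The Jarid2 balance separates the groups by a clear gap, the lowest wild-type value being 0.62 and the highest Mbd2-/- value 0.46, whereas wild-type replicate 1 and Mbd2-/- replicate 3 meet at -2.46 for Ezh2 relative to Ezh1.

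Levels were compared between genes as normalized counts per kilobase of the longest annotated transcript. In wild-type libraries Ezh1 was highest at 227 ± 13.5 (SD, n = 4), then Bmi1 at 170 ± 14.7, and the 2 did not overlap. Phf1 (147 ± 4.79), Cbx7 (145 ± 3.10), Suz12 (135 ± 6.63) and Rnf2 (124 ± 13.1) followed, each overlapping its neighbour in this order. The lower levels were those of Mtf2 (80.1 ± 1.92), Eed (71.6 ± 5.23), Jarid2 (65.2 ± 3.54) and Ezh2 (56.6 ± 4.63), where Eed and Jarid2 overlapped and the others did not overlap their neighbours. At the bottom of the order Jarid2 and Ezh2 exchanged places. In wild-type libraries Jarid2 (62.1 to 70.0) was above Ezh2 (51.3 to 61.5), and in Mbd2-/- libraries Ezh2 (60.2 to 75.0) was above Jarid2 (50.4 to 56.5). These levels assume the longest transcript and would move if a shorter one were used. They also carry the length trend of the Mbd2-/- libraries, and the order without it was not tested. With that trend removed the log2 fold change was -0.16 for Jarid2 and 0.17 for Ezh2, neither of them called by limma.

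**Figure D4:**
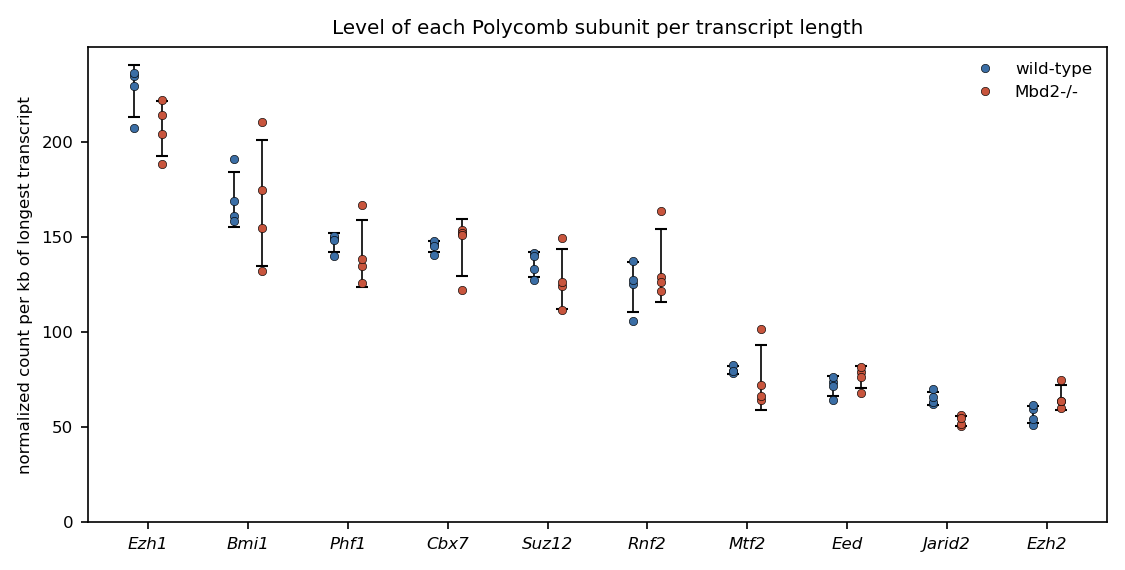
Normalized count per kilobase of longest annotated transcript (vertical axis, from 0) for the 10 subunits in wild-type (blue) and Mbd2-/- (red) libraries, with 1 point per library and bars for the SD around the mean, ordered by the wild-type mean. Ezh1 leads at 227 in wild-type. The 2 genes at the right, Jarid2 and Ezh2, stand in opposite order in the 2 genotypes, with the length trend not removed.

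The rest of the Polycomb machinery was read from a list of 54 genes by role, of which 53 passed the filter on low values, and 7 of them were called, 4 lower and 3 higher, against the 22.0% of all tested genes. Their median log2 fold change was -0.09, with 36 of 53 below 0. The genes that rose were Rbbp4, a histone-binding subunit that PRC2 shares with NuRD, Yaf2, an adaptor of variant PRC1, and Cbx8, a chromodomain subunit of PRC1. Rbbp4 went from 1838 ± 71.5 to 2220 ± 68.3 normalized counts (log2 fold change 0.27, SE 0.05, adjusted p = 0.00153 by limma). Yaf2 went from 742 ± 55.3 to 912 ± 49.6 (0.30, SE 0.07, adjusted p = 0.00464 by limma) and Cbx8 from 84.3 ± 11.5 to 115 ± 6.28 (0.45, SE 0.12, adjusted p = 0.0124 by limma, SD and n = 4 throughout). Without the length trend Rbbp4 and Cbx8 were the 2 genes still called and Yaf2 was not.

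All 4 of the genes that fell lie outside the PRC2 and PRC1 cores. Dcaf7, a WD-repeat partner of variant PRC1, went from 3783 ± 136 to 3268 ± 172 normalized counts (log2 fold change -0.21, SE 0.05, adjusted p = 0.00853 by limma). The other genes that fell belong to the deubiquitinase complex that removes the PRC1 mark from histone H2A. They were Asxl1, which activates its enzyme (-0.23, adjusted p = 0.0139 by limma), the forkhead factor Foxk1 (-0.23, adjusted p = 0.00453 by limma) and the host cell factor gene Hcfc1 (-0.20, adjusted p = 0.0122 by limma). With the length trend removed none of these 4 was called. With fewer libraries the adjusted p rose slightly above 0.05 while the log2 fold change moved little, for Asxl1 (-0.21 and -0.20) without wild-type replicate 1 (adjusted p = 0.0522 by limma) or Mbd2-/- replicate 1 (0.0513), and for Hcfc1 (-0.18) without wild-type replicate 4 (0.0537).

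By group, 1 of 7 other PRC2 subunits, 1 of 8 RING, PCGF and RYBP proteins and 1 of 9 tested CBX, PHC and SCM proteins rose, 1 of 17 variant PRC1 partners and 3 of 10 deubiquitination genes fell, against 12.0% higher and 10.0% lower over all tested genes, and the H3K27 demethylases Kdm6a and Kdm6b gave 0 calls by limma, DESeq2 or edgeR, and 0 at an unadjusted p under 0.05 (log2 fold changes -0.16 and -0.10). In roles whose most abundant gene was not called, that gene was the chromodomain gene Cbx6 at 6995 ± 205 and 7253 ± 500 normalized counts, the O-GlcNAc transferase gene Ogt at 2768 ± 67.5 and 2458 ± 278, and, of the 2 demethylases, Kdm6b at 619 ± 41.9 and 580 ± 36.2. Without Mbd2-/- replicate 4 the calls in the list went from 7 to 21 of 53 (14 lower and 7 higher), in a fit that called 35.6% of all genes and 17.7% lower. They included Ogt (-0.25, adjusted p = 9.71e-05 by limma) and Kdm6a (-0.26, adjusted p = 0.00414 by limma), both lower.

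**Figure D5:**
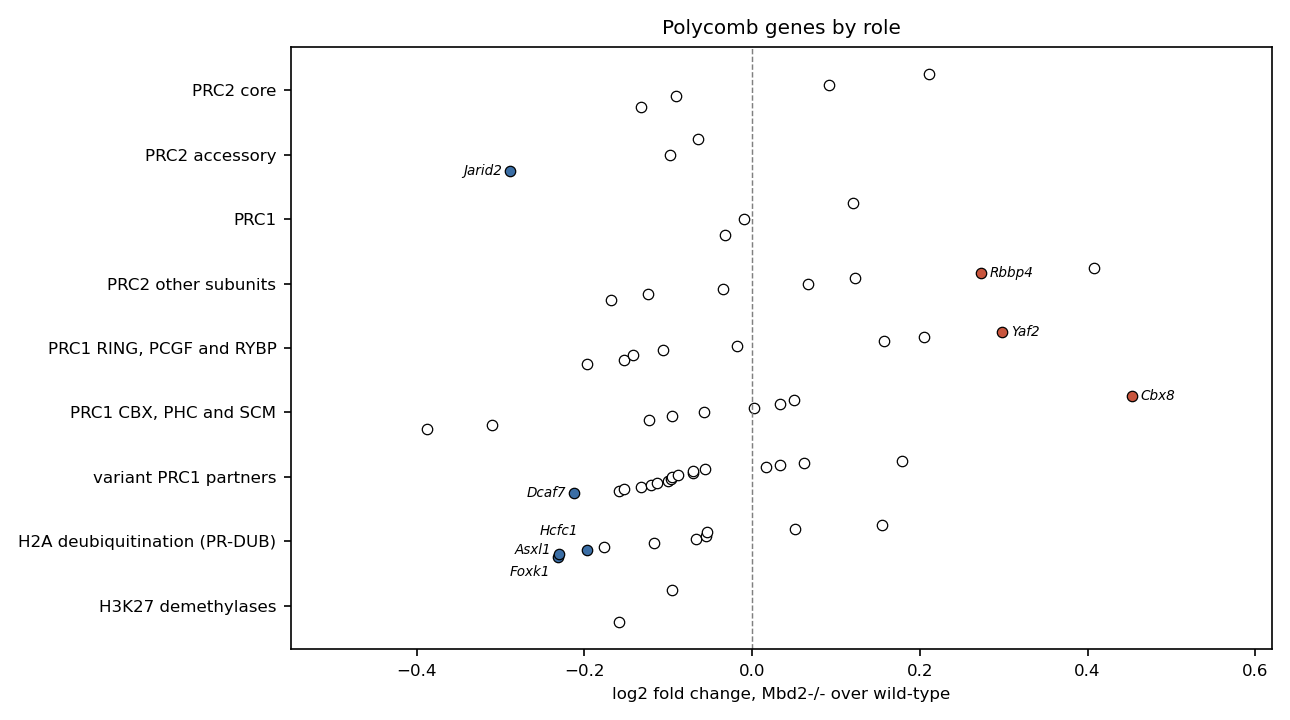
Log2 fold change (Mbd2-/- over wild-type, horizontal axis) of 63 tested Polycomb genes, the 10 subunits in the top 3 rows and the other 53 below, 1 row per role and 1 point per gene, with called genes filled in blue (lower) or red (higher) and named. Jarid2 at -0.29 is the filled point of the top rows, and the 4 other genes that fell, Dcaf7, Asxl1, Foxk1 and Hcfc1, were not called with the length trend removed.

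Genes known from other systems as Polycomb targets were listed as a readout of repression, although no histone mark was measured here. Most were close to silent. The list held 60 genes, with Hox genes entered only where the table had them. Of these, 55 were in the table and 24 passed the filter. The 4 Hox genes present summed to at most 5.47 normalized counts in a library. Of the 24 tested, 6 rose and 1 fell, 7 called in all, against 22.0% of all tested genes (12.0% higher and 10.0% lower). With no filter on low values the split was less one-sided, 6 higher and 4 lower of 55 targets. That fit called 2903 of 19201 genes, 1591 higher and 1312 lower. Over the 24, the median of their log2 fold changes was -0.06, and 13 were below 0. En2, a midbrain and hindbrain homeobox gene, was 9.0, 15.0, 10.9 and 14.9 in wild-type and 88.1, 45.7, 70.1 and 83.6 in Mbd2-/- libraries. Every Mbd2-/- library was well above every wild-type library (log2 fold change 2.42, SE 0.23, adjusted p = 8.1e-06 by limma).

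The other called targets changed less or also stand on a marker list. Otx2, a homeobox gene that is also on the choroid plexus list, rose from 78.5 ± 3.28 to 122 ± 10.8 (log2 fold change 0.63, adjusted p = 8.27e-04 by limma), as did all 19 markers of that list. Gbx2, which is also on the thalamus list, fell from 23.3 ± 7.78 to 7.92 ± 4.03 (-1.51, adjusted p = 0.00589 by limma), as did 11 of the 12 other markers there. Nkx2-2, an oligodendrocyte lineage regulator, rose from 33.3 ± 4.38 to 51.7 ± 9.90 (0.61, adjusted p = 0.0180 by limma), and Emx2, a regulator of hippocampal development, from 206 ± 33.8 to 261 ± 10.8 (0.35, adjusted p = 0.0231 by limma). Pax6 and Lhx2 were the remaining genes that rose (SD and n = 4 throughout). Calls on this list went from 7 to 4 without wild-type replicate 1, a fit that called 14.5% of all genes, Nkx2-2, Emx2 and Pax6 being the 3 lost. With 1 library left out Pax6 was called in 3 of 8 fits, Emx2 in 4 and Nkx2-2 in 6, at log2 fold changes of 0.28 to 0.38, 0.24 to 0.44 and 0.49 to 0.69. DESeq2 gave Gbx2 no adjusted p, and called 6 targets, 0 of them lower.

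Among 10630 genes with a mean of at least 100 normalized counts, the 3 whose profile over the 8 libraries lay nearest to that of Jarid2 were Cdyl2, a chromodomain gene, Atrn, which encodes attractin, and Lman2l, which encodes a lectin of the secretory pathway. Their root mean square log2 differences from the centred profile of Jarid2 were 0.020, 0.024 and 0.029, and their log2 fold changes -0.29, -0.27 and -0.26. The nearest of the other Polycomb subunits, Ezh1, was at 0.14 and ranked 2548, and Ezh2 at 0.26 and 8256, so no other member followed Jarid2 closely across the libraries. These distances describe likeness over 8 libraries that share 1 contrast.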

How the data were processed

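Hippocampal RNA-seq libraries, 4 per genotype with 2 mice pooled in each, were read as 100-base pairs. The authors removed duplicate reads, aligned to mm9 with STAR and normalized with DESeq2; versions, counting tool, annotation and use of strand are not given in the sources used here. The deposited signal is a normalized count, that is, reads divided by a size factor. Dividing by the value of 1 read (0.531 to 1.59) recovered whole reads within 0.01 for 100% of values, for use with DESeq2 1.42.0, edgeR 4.0.16 and voom as alternatives. Total reads on genes were 8087750 to 23790825, and intervals cover the spread between pools, not mice. The authors' fold changes, standard errors, test statistics, p-values and means were not used.

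The columns carry letters and numbers, which were matched to the sample titles. The test was that of limma 3.58.1 (R 4.3.3, trend and robust moderation) on log2(normalized count + 1), for genes with a mean of at least 10, with Benjamini-Hochberg adjustment over all 14504 tested genes at 0.05. The script was tested on simulated data. No pair of libraries within a genotype agreed within sampling noise (chi-square per degree of freedom 1.90 to 14.1). Balances within libraries were compared by exact permutation tests, adjusted over 3, of which 1, which did not reach the p of the other two, is not reported here; nor is the most abundant target gene. Of 19201 symbols, 94.2% matched the mm9 annotation, and 97.7% of tested genes had a length. The length alternative removed from each library a smooth trend (loess) of its log2 difference from the wild-type mean on transcript length. Alternatives changed the pseudocount, filter, scaling, tool, replicate block and length, or left out 1 library. Members and lists were chosen by known function with earlier results of these data known. Named genes were all members, Mbd2, the called genes and most abundant gene of each Polycomb role, up to 5 called targets with the largest change, and the 3 nearest profiles. Pax6, Lhx2, Kdm6a and Ezh2 in the list of profiles were named beside that rule. Marker lists are given by their sums and counts, without their most abundant genes.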

Additional observations from a re-analysis of the deposited data

Results flagged for a closer look

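Of 26 groups of 4 libraries examined (10 subunits, Mbd2 and 2 balances, in each genotype), 1 held a library far from the others, and chance flags about 1 in 20 such groups. It was Cbx7 in Mbd2-/- replicate 4, at 414 normalized counts beside 512 to 520 in the other Mbd2-/- libraries, a gap of 0.924 of the group's range, past Dixon's critical value for 4 samples. In the same library Mtf2 and Bmi1 were at their highest, and its relation of change to transcript length was weak.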

How the results depend on the processing

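Jarid2 was called in 9 of 10 alternatives that kept all libraries and in 8 of 8 that left 1 out (log2 fold change -0.32 to -0.25, adjusted p 8.17e-04 to 0.0288 by limma), the exception being removal of the length trend (-0.16). That setting gave 2091 calls over all genes, 0 among the members by limma and 2 among the other Polycomb genes, balances of -0.17 for Jarid2 and 0.26 for Ezh2 relative to Ezh1, and Cbx7 at 0.00062. DESeq2 and edgeR called Jarid2 too. With 5 added to each count the Ezh2 balance was 0.34 (p = 0.0571, exact permutation test). Targets called were 4 with a mean of at least 50, where 7 targets were tested and 3150 of 12060 genes were called. With no filter 10 were called (4 lower, 6 higher), where 2903 of 19201 genes were. Leaving out 1 library gave 2073 to 5156 calls over all genes, 1 to 3 among the members, 6 to 21 among the other Polycomb genes and 4 to 7 among the targets. The count over all genes was 5156 without Mbd2-/- replicate 4, 2099 and 2073 without wild-type replicates 1 and 3, and 2100 and 2109 without Mbd2-/- replicates 1 and 2. The Ezh2 balance was 0.27 to 0.41, the log2 fold change of Bmi1 -0.15 to 0.076 (above 0 in 3 of the 8 fits) and that of Cbx7 -0.040 to 0.069. Mbd2 lost its call in 3 of the 8 fits (adjusted p up to 0.0624 by limma). These left out wild-type replicate 3, Mbd2-/- replicate 1 or Mbd2-/- replicate 2. The log2 fold changes of Mbd2 there were -0.39, -0.40 and -0.39, beside -0.43 with all libraries. The causes were not tested.

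Libraries of the same number did not deviate together (r = -0.10, -0.06, 0.07 and 0.04), so the numbers pair nothing. With the replicate block there were 3192 calls over all genes, 1 among the members, 8 among the other Polycomb genes and 7 among the targets. The Jarid2 and Ezh2 balances, tested by flipping signs within numbers, gave p = 0.125 by the exact permutation test, the smallest that 4 pairs allow. With 4 pools a genotype, what could be detected differed by gene with the spread between libraries, and the interval of Mtf2 ran from -0.34 to 0.14 with all libraries.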
